A study of Homo sapiens with 6 samples.

Results

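The genes MSH6, MSH3, PMS2, MLH3, PMS1 and EXO1, which act in DNA mismatch repair, were described in colorectal cancer cells with and without silencing of the long noncoding RNA AC010789.1. They were chosen by gene symbol and make up 6 of the 18768 genes, and 53 of the 98886 transcripts, that had counts. HCT116, an established human colorectal carcinoma line, received either a negative control siRNA (the siRNA-NC group) or an siRNA directed at AC010789.1 (the si-AC010789.1 group), with 3 replicates in each. Both groups were grown in the same medium, and the transfection reagent named in the study is Lipofectamine. HCT116 is 1 line from 1 donor, the knockdown was transient and used 1 siRNA, and the time from transfection to RNA extraction was not given in the sources used here. RNA was sequenced as paired-end TruSeq libraries, which held between 11277222 and 13443866 counts each. The level of AC010789.1 was not analysed here, so the labels were not checked against the targeted RNA.

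Mismatch repair corrects bases that DNA polymerase has misincorporated and small loops that form when repeats slip during replication. A MutS heterodimer finds the error, a MutL heterodimer is recruited and its endonuclease nicks the new strand, and an exonuclease removes the stretch that carries the error before polymerase and ligase fill it. Loss of the pathway gives microsatellite instability, a known feature of a share of colorectal tumours and of HCT116 cells.

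None of the 6 genes passed the threshold between the groups. Their levels were compared as CPM (counts scaled to library size, with TMM factors), and 0 of 6 passed an adjusted p of 0.05 by the quasi-likelihood test of edgeR with Benjamini-Hochberg adjustment. An unadjusted p under 0.05 was found for 0, and DESeq2 also called 0. Among all 13764 genes tested, 0.944% passed the adjusted threshold and 17.2% had an unadjusted p under 0.05. By the study's criteria, which require an unadjusted p under 0.05 and an absolute log2 change over 1, 0 of the 6 and 0.777% of all genes were called. In 0 of the 6 genes did the 3 values of one group lie apart from those of the other, against 25.1% of all genes (12.9% with si-AC010789.1 lower). A lower fitted level in si-AC010789.1 was found for 2 of the 6 and for 50.1% of all genes. The median log2 fold change of the 6 was 0.02. The median absolute log2 fold change was 0.04 for the 6 genes and 0.14 for all genes. With 3 libraries against 3, an exact two-sided permutation test cannot give a p-value under 0.1. The labels do not say whether replicates came from separate cultures, and the study mentions different generations of cells among its biological repeats, so the p-values measure the spread between these libraries. In bulk RNA, fewer cells that express a gene and less RNA per cell cannot be told apart.

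**Figure D1:**
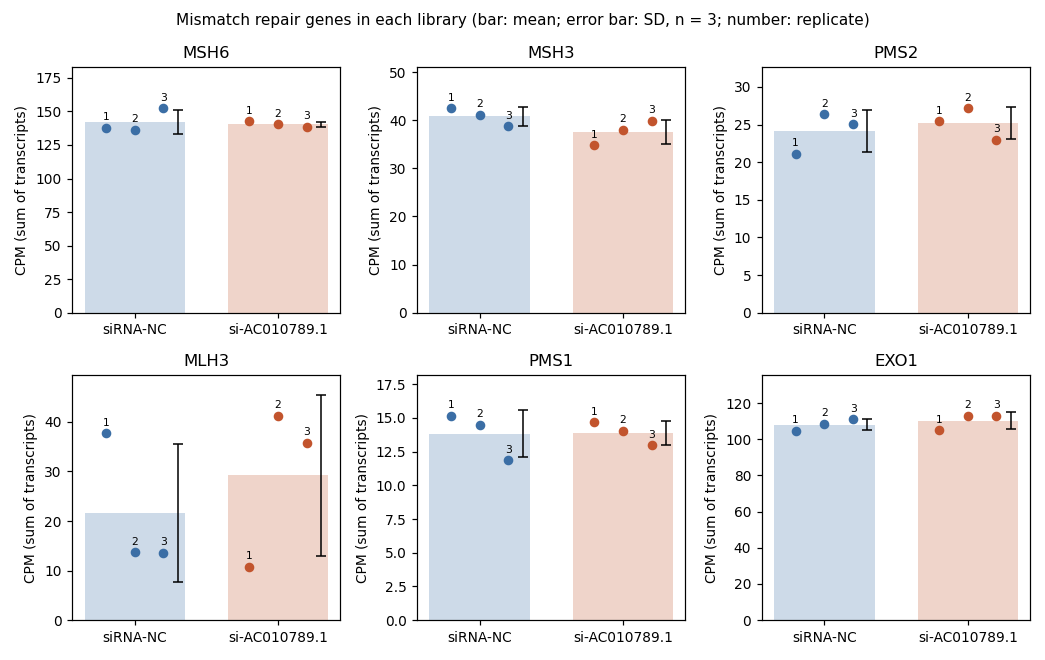
Level of each mismatch repair gene in CPM for the 3 siRNA-NC and 3 si-AC010789.1 libraries, with points for libraries, bars for group means and error bars for the SD (n = 3). The groups overlap for all 6 genes, and the points of MLH3 lie far apart within both groups.

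**Figure D2:**
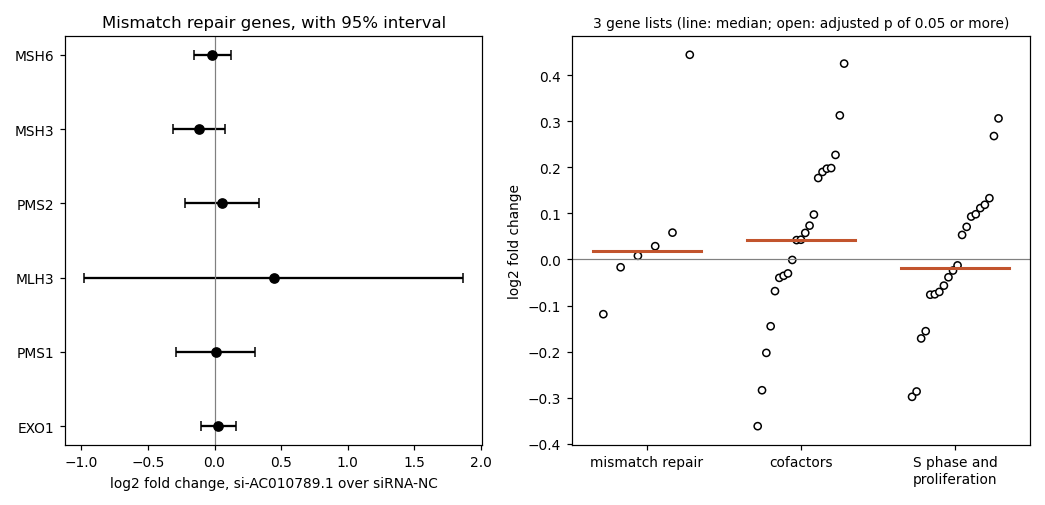
Log2 fold change (si-AC010789.1 minus siRNA-NC) of the 6 genes with its 95% confidence interval from edgeR (left), and of the 6 genes, the cofactors and the S phase and proliferation genes described further on, as 1 circle per gene with a line at the median (right). The intervals of all 6 genes include 0, that of MLH3, from -0.98 to 1.87, is the widest, and all circles are open, for an adjusted p of 0.05 or more.

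MSH6 (ENSG00000116062.14, chromosome 2 of GRCh38, 47695530 to 47810101, plus strand) is the MutS subunit for base mismatches and short loops. Its level was 138, 136 and 152 CPM in siRNA-NC replicates 1, 2 and 3, and 143, 140.3 and 139 CPM in si-AC010789.1 replicates 1, 2 and 3. The highest value belonged to siRNA-NC replicate 3 and the lowest values to the other two controls, with the silenced libraries between them. The means were 142 ± 8.85 CPM in the controls and 140.5 ± 2.01 CPM after silencing (SD, n = 3 each). On the log2 scale the fold change was -0.02 (SE 0.057, 95% confidence interval -0.15 to 0.12, adjusted p = 0.914 with edgeR). Exons of MSH6 overlap those of FBXO11 on the other strand, and FBXO11 varied from 29.3 to 80.6 CPM among the libraries. Whether strand was used in counting was not given in the sources used here.

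MSH3 (ENSG00000113318.9, chromosome 5, 80654648 to 80876460, plus strand) is the MutS subunit for larger insertion and deletion loops. Its level was 42.5, 41.2 and 38.7 CPM in siRNA-NC replicates 1 to 3, and 34.8, 38.0 and 39.8 CPM in si-AC010789.1 replicates 1 to 3. Replicates 1 and 2 of si-AC010789.1 were below every control library, and si-AC010789.1 replicate 3 was above siRNA-NC replicate 3. The means were 40.8 ± 1.90 CPM and 37.5 ± 2.57 CPM (SD, n = 3 each). On the log2 scale the fold change was -0.12 (SE 0.082, 95% confidence interval -0.32 to 0.08, adjusted p = 0.512 with edgeR), and the exact permutation p was 0.2.

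PMS2 (ENSG00000122512.15, chromosome 7, 5973239 to 6009125, minus strand) carries the endonuclease of the main MutL heterodimer. Its level was 21.1, 26.4 and 25.1 CPM in siRNA-NC replicates 1 to 3, and 25.4, 27.2 and 23.0 CPM in si-AC010789.1 replicates 1 to 3. The lowest value was a control library and the highest a silenced one, with the others mixed between them. The means were 24.2 ± 2.75 CPM and 25.2 ± 2.09 CPM (SD, n = 3 each), and the log2 fold change was 0.06 (SE 0.115, 95% confidence interval -0.22 to 0.33, adjusted p = 0.839 with edgeR). PMS2 has close copies on the same chromosome, and 8 of them (PMS2CL and PMS2P genes) together held 13.1 to 24.4 CPM. How reads shared with these copies were assigned was not given in the sources used here, so the level of PMS2 is uncertain to that extent.

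MLH3 (ENSG00000119684.15, chromosome 14, 75013764 to 75051532, minus strand) forms a MutL heterodimer that also acts in meiotic crossing over. Its level was 37.7, 13.6 and 13.6 CPM in siRNA-NC replicates 1 to 3, and 10.7, 41.2 and 35.8 CPM in si-AC010789.1 replicates 1 to 3. The low libraries (siRNA-NC replicates 2 and 3 and si-AC010789.1 replicate 1) spanned 10.7 to 13.6 CPM and the high libraries 35.8 to 41.2 CPM, with a gap of 2.62-fold between them. This split crossed the groups, since each held both high and low libraries. The means were 21.6 ± 13.9 CPM and 29.3 ± 16.3 CPM (SD, n = 3 each). On the log2 scale the fold change was 0.44 (SE 0.593, 95% confidence interval -0.98 to 1.87, adjusted p = 0.754 with edgeR), so this design could not tell a sizeable rise or fall of MLH3 from none. It came to 1.11 when siRNA-NC replicate 1 was left out and to 0.12 when si-AC010789.1 replicate 2 was, and passed the threshold in neither case.

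PMS1 (ENSG00000064933.17, chromosome 2, 189784085 to 189877629, plus strand) is a MutL subunit whose role in mismatch repair is less well defined. Its level was 15.2, 14.5 and 11.9 CPM in siRNA-NC replicates 1 to 3, and 14.7, 14.1 and 12.96 CPM in si-AC010789.1 replicates 1 to 3. The control libraries held both the highest and the lowest value. The means were 13.8 ± 1.74 CPM and 13.9 ± 0.871 CPM (SD, n = 3 each), and the log2 fold change was 0.01 (SE 0.124, 95% confidence interval -0.29 to 0.31, adjusted p = 0.982 with edgeR). The first exon of some of its transcripts, such as PMS1-221 but not PMS1-213, overlaps ORMDL1 on the other strand, which held 12.4 to 23.8 CPM.

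EXO1 (ENSG00000174371.16, chromosome 1, 241847967 to 241895148, plus strand) is the exonuclease that removes the strand with the error, and no other annotated exon overlaps it. Its level was 105, 108 and 111 CPM in siRNA-NC replicates 1 to 3, and 105, 113 and 113 CPM in si-AC010789.1 replicates 1 to 3. The lowest control and the lowest silenced library were nearly equal, and si-AC010789.1 replicates 2 and 3 were the highest of a narrow range. The means were 108 ± 3.17 CPM and 110.2 ± 4.61 CPM (SD, n = 3 each). On the log2 scale the fold change was 0.03 (SE 0.054, 95% confidence interval -0.10 to 0.16, adjusted p = 0.831 with edgeR).

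The 6 genes differed widely in how steady they were. The coefficient of variation over the 6 libraries was 3.42% for EXO1, 4.11% for MSH6, 6.87% for MSH3, 8.90% for PMS1 and 9.14% for PMS2. Each of these was below the median of 10.7% over the 11664 genes with a mean of at least 50 counts. MLH3 had 55.6%, and its highest library was 3.84 times its lowest, a ratio that 2.13% of those genes exceeded. For EXO1 the same ratio was 1.08, which 97.9% of the genes exceeded. The 9 transcripts of MLH3 did not share the swing. Its 3 most abundant transcripts (MLH3-201, MLH3-202 and MLH3-212) together held 399, 141 and 149 counts in siRNA-NC replicates 1 to 3, and 102, 479 and 417 in si-AC010789.1 replicates 1 to 3. The other 6 together held between 21 and 40 counts in every library.

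Levels of different genes were compared as TPM, which divides each transcript's counts by its length. EXO1 had the highest level, with a mean of 138 TPM over the 6 libraries (112 to 155), followed by MSH6 with 66.3 TPM (57.5 to 80.4). MSH3 followed with 19.3 TPM (17.2 to 21.3) and PMS2 with 18.9 TPM (14.9 to 21.2). MLH3 had 12.3 TPM (7.15 to 18.1) and PMS1 12.02 TPM (10.1 to 13.7). EXO1 stood above MSH6, and MSH6 above MSH3, in all 6 libraries without overlap. The ranges of MSH3 and PMS2, of PMS2 and MLH3, and of MLH3 and PMS1 overlapped, although PMS2 was above MLH3 within each of the 6 libraries. The values depended on the length used: with the longest transcript of each gene as its length, the siRNA-NC mean fell from 131 to 78.0 TPM for EXO1 and from 11.3 to 6.91 TPM for MLH3.

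**Figure D3:**
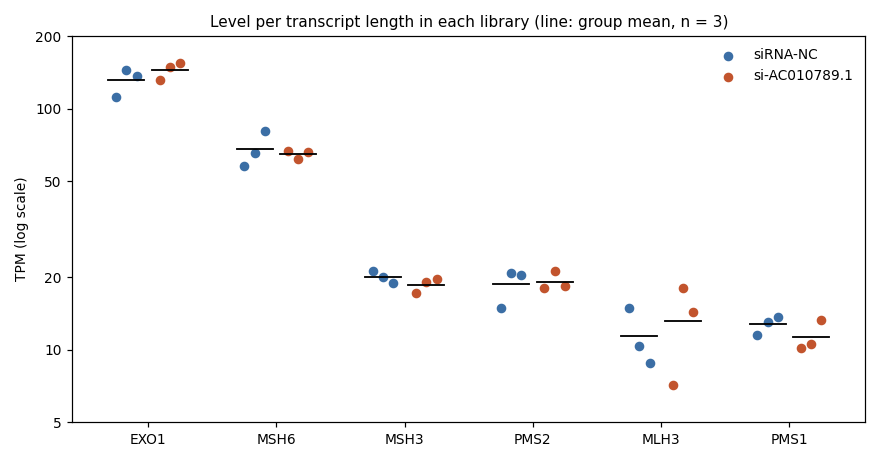
TPM of the 6 genes on a log axis, ordered by mean, with a point for each of the 3 siRNA-NC and 3 si-AC010789.1 libraries and a line for each group mean. EXO1 and MSH6 stand clear of each other and of the rest, and the ranges of the 4 lower genes overlap with their neighbours.

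Beneath the gene sums, the most abundant transcripts of MSH6, PMS2, MLH3, PMS1 and EXO1 varied more among libraries than the sums of these genes did. Of the 53 transcripts of all 6 genes, 24 passed the filter on low counts. Of those, edgeR called 0 at the adjusted threshold (lowest adjusted p 0.938), found 0 with an unadjusted p under 0.05 and 0 by the study's criteria, and DESeq2 called 0. DESeq2 gave no p-value for PMS2-201 and MSH6-213, so it could not call them. In simulated counts, the edgeR transcript fit called 0% of changes with a log2 fold change of 1 and 0% of those of 2. Its lack of calls at the adjusted threshold therefore cannot tell changes of that size from none. Among all 44319 transcripts tested, 0.0135% passed the adjusted threshold, 5.73% had an unadjusted p under 0.05 and 3.5% met the study's criteria. The groups did not overlap for 2 of the 24, MLH3-201 and EXO1-206, against 14% of all transcripts. Among the 15 tested transcripts of the 6 genes with a mean of at least 50 counts, 7 had a highest library at least 10 times the lowest, or a library at 0. Among all such transcripts the share was 20.6%, and among genes it was 0.617%. How reads shared by several transcripts of a gene were divided was not given in the sources used here. In MSH3, MSH3-201 held from 99.2% to 99.6% of the gene's counts in every library, and the processed transcript MSH3-203 held the rest.

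**Figure D4:**
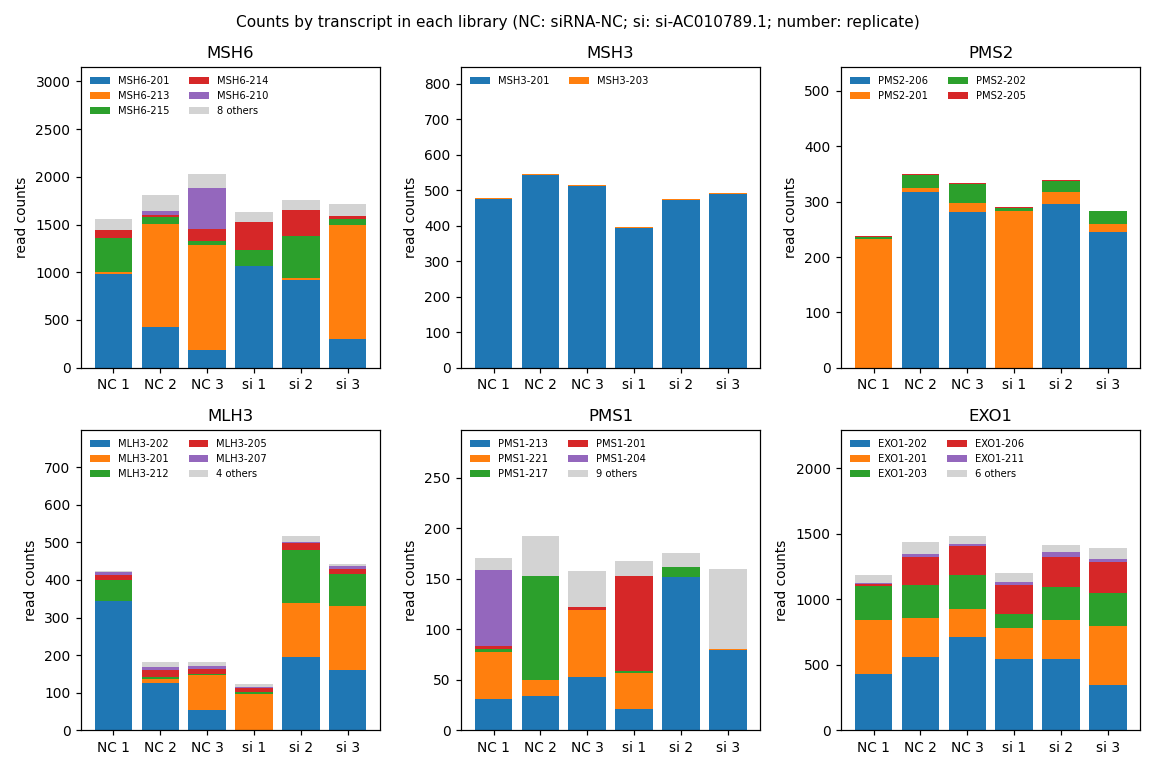
Read counts of each gene as bars stacked by transcript, for the 3 siRNA-NC (NC) and 3 si-AC010789.1 (si) libraries. MSH3 consists almost wholly of MSH3-201 in every library, while PMS2 switches between PMS2-201 and PMS2-206.

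In MSH6, PMS2, MLH3 and PMS1, a pair among the most abundant transcripts differed by 1 internal exon, beside differences in the first or last exon. The joints with and without that exon are shown because they mark where the forms part. Each line gives the last bases of the exon before the joint in lower case and the first bases of the exon after it in capitals, 5′ to 3′ on the gene's strand, from the GENCODE v29 transcripts (GRCh38).
MSH6-201, exons 2 and 3: taaagccatatacagGTTCAAAATCAAAGG
MSH6-213, exons 2 and 3, exon absent: taaagccatatacagGTAGGCACAACTTAC
PMS2-201, exons 3 and 4: acttcgaaggcttaaCTCTGAAACATCACA
PMS2-206, exons 3 and 4, exon absent: acttcgaaggcttaaCGATGTCACCATTTC
MLH3-201, exons 6 and 7: agaatggcgaggcagGTGGGAACCTGCTCG
MLH3-202, exons 6 and 7, exon absent: agaatggcgaggcagATTCCTACGAGAAGC
PMS1-213, exons 3 and 4: tgttgtatagctgagGTTTTAATTACAACA
PMS1-221, exons 3 and 4, exon absent: tgttgtatagctgagGTACAACTGTAACTG

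The PMS2 exon (exon 4 of PMS2-201, chromosome 7, 6003690 to 6003792, 103 nt, coding) gave the sharpest switch. PMS2-201 held 233, 7 and 15 counts in siRNA-NC replicates 1 to 3 and 283, 23 and 15 counts in si-AC010789.1 replicates 1 to 3. PMS2-206, whose joint lacks the exon, held 0, 317 and 282 counts and then 0, 295 and 245 counts in the same order. Replicate 1 of both groups therefore held one form and the other libraries mainly the other. Counting also PMS2-202, a retained-intron transcript that holds the exon, transcripts with the exon made up 100%, 9.17% and 15.1% in the controls and 100%, 12.7% and 13.4% after silencing, with an exact permutation p of 1. The sum of PMS2-201 and PMS2-206 moved far less, from 233 to 324 counts, and the annotated coding length was 2586 nt for PMS2-201 and 2268 nt for PMS2-206.

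The MSH6 exon (exon 3 of MSH6-201, chromosome 2, 47795894 to 47796063, 170 nt, coding) was likewise used unevenly. MSH6-201 held 979, 425 and 186 counts in siRNA-NC replicates 1 to 3 and 1071, 914 and 305 counts in si-AC010789.1 replicates 1 to 3. MSH6-213, which lacks the exon and has an annotated coding length of 3174 nt against 4080 nt, held 22, 1083 and 1101 counts and then 0, 23 and 1195 counts. Over the 10 transcripts that span its place, 7 with and 3 without it, the share with the exon was 94.5%, 32.3% and 22.3% in the controls and 100%, 96.3% and 27.0% after silencing (exact permutation p = 0.4). Both groups held libraries of either kind, and MSH6 as a sum stayed within 136 to 152 CPM.

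The MLH3 exon (exon 7 of MLH3-201, chromosome 14, 75033419 to 75033490, coding) spans 72 nt, or 24 codons, and leaves the reading frame unchanged. MLH3-201 held 1, 11 and 93 counts in siRNA-NC replicates 1 to 3 and 96, 143 and 170 counts in si-AC010789.1 replicates 1 to 3, so that all silenced libraries were above all controls in CPM. Its log2 fold change was 2.06 (SE 1.32, adjusted p = 0.942 with edgeR). It ranged from 1.502 to 4.54 with 1 library left out and did not pass the adjusted threshold in any of these fits. The highest came without siRNA-NC replicate 3 (unadjusted p = 0.00888, adjusted p = 0.565 with edgeR, a model fitted across all transcripts). Among the named transcripts, MLH3-212, PMS1-213 and PMS1-221 also had an unadjusted p under 0.05 in a fit without 1 library. The lowest was that of PMS1-221 without si-AC010789.1 replicate 1 (log2 fold change -6.10, unadjusted p = 0.00667, adjusted p = 0.477 with edgeR). MLH3-202, which lacks the exon, held 344, 125 and 53 counts and then 0, 195 and 160 counts. Over all transcripts that span its place, with MLH3-206, MLH3-208 and MLH3-212 also holding the exon and MLH3-210 also lacking it, the share with the exon was 14.4%, 17.8% and 65.2% in the controls and 100%, 60.4% and 61.4% after silencing. These shares overlapped between the groups, since siRNA-NC replicate 3 was above 2 silenced libraries (exact permutation p = 0.3).

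The PMS1 exon (exon 4 of PMS1-213, chromosome 2, 189805652 to 189805754, 103 nt, coding) was in 70.1%, 91.1% and 48.5% of the counts of transcripts that span its place in siRNA-NC replicates 1 to 3 and in 20.7%, 100% and 99.3% in si-AC010789.1 replicates 1 to 3 (exact permutation p = 0.8). The lowest and the highest share were both in silenced libraries. PMS1 also held transcripts annotated as targets of nonsense-mediated decay, which removes RNAs with an early stop codon. They took 53.6% of its counts in siRNA-NC replicate 2 and 57.1% in si-AC010789.1 replicate 1, and at most 5.68% in the other libraries. PMS1-217 carried this share in the former library with 103 counts, and was at 10 counts or fewer elsewhere.

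**Figure D5:**
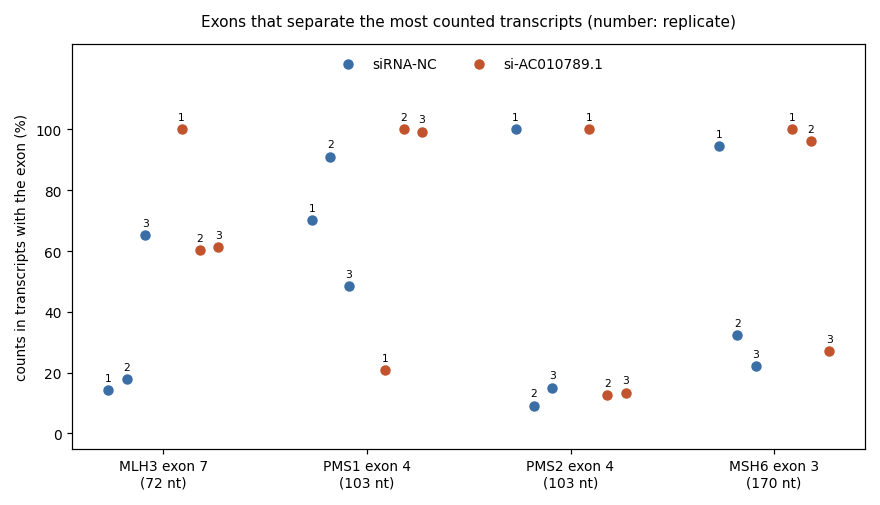
Percent of counts in transcripts with the alternative internal exon of MLH3, PMS1, PMS2 and MSH6, for each siRNA-NC and si-AC010789.1 library. The groups overlap for all 4 exons, and for PMS2 replicate 1 of each group is at 100% while the other libraries are at 15.1% or below.

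EXO1 kept its sum while its transcripts shifted less. EXO1-202, the most abundant, held 430, 555 and 715 counts in siRNA-NC replicates 1 to 3 and 541, 541 and 343 counts in si-AC010789.1 replicates 1 to 3. EXO1-201, which codes for the same 2538 nt, held 408, 301 and 208 counts and then 240, 301 and 456 counts, so that it was high where EXO1-202 was low in siRNA-NC replicate 1 and si-AC010789.1 replicate 3. EXO1-203 held 263, 250 and 261 counts and then 105, 249 and 245 counts, with a log2 fold change of -0.35 (SE 0.345, adjusted p = 0.987 with edgeR). EXO1-206, a processed transcript with no annotated coding sequence, held 16, 219 and 219 counts in siRNA-NC and 226, 231 and 241 counts in si-AC010789.1. The groups did not overlap in CPM or in its share of the gene (exact permutation p = 0.1, the smallest this design allows), but siRNA-NC replicate 1 stood far below the others. Its log2 fold change was 0.73 (SE 0.841, adjusted p = 0.991 with edgeR) and fell to 0.20 without that library.

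A feature of the promoters that the choice of genes did not use was searched in RefSeq windows (GRCh38.p14) from 250 bases before to 50 bases after each annotated start. The motif was an E2F-type site, the element read by the transcription factors that drive S phase genes, spelled TTTCCCGC, TTTCGCGC, TTTGCCGC or TTTGGCGC on either strand, and was chosen with these sequences in view. At least 1 window of EXO1, MSH6, MSH3 and PMS2 held it, and no window of MLH3 and PMS1 did. It was in 5 of the 11 windows of the 6 genes, against 3.31% of all windows, and EXO1 and MSH6 each also had windows without it. Because of how the motif was chosen, these shares are not a test of the 6 genes. Of all genes with a window 3.99% held it, of the S phase and proliferation genes described next 9 of 17 (52.9%), and of the cofactors described after them 3 of 18 (16.7%). The stretches around it are shown with the motif in capitals, on the gene's strand, at chromosome 1 from 241848197 (EXO1), chromosome 2 from 47783137 (MSH6), chromosome 5 from 80654534 (MSH3, where a second match on the other strand overlaps it) and chromosome 7 from 6009131 (PMS2).
EXO1: aaaggtcagccTTTCGCGCgctgtgtaggc
MSH6: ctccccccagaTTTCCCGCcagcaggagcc
MSH3: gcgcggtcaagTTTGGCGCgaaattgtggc
PMS2: cgggaagtattTTTGCCGCcccgcccggaa

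The matches describe letters in these windows, and binding was not measured. Beside them, 20 S phase and proliferation genes were read from the same fit. By edgeR 0 of 20 passed the adjusted threshold, and DESeq2 called 1, the cyclin gene CCNA2. An unadjusted p under 0.05 was found for 4 of the 20 (CCNA2, CDC45, E2F1 and UHRF1, named after their values were seen), against 17.2% of all genes, and the groups did not overlap for 9, against 25.1%. CDC45, a replication helicase factor, had 52.8 ± 4.92 CPM in the controls and 65.2 ± 2.79 CPM after silencing (SD, n = 3 each, log2 fold change 0.31, adjusted p = 0.153 with edgeR). CCNA2 was at 124 ± 2.48 CPM and 101 ± 4.06 CPM (SD, n = 3 each, log2 fold change -0.30, adjusted p = 0.064 with edgeR). The summed level of the 20 genes was 5215 to 5359 CPM in the controls and 5254 to 5305 CPM after silencing, and their median log2 fold change was -0.02. The part of cell cycle state in the levels of the 6 genes was not tested.

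The other proteins of the reaction were read from a list of 22 genes, which holds the sliding clamp PCNA, its loader, the single-strand binding protein RPA, DNA polymerase delta, ligase and further partners. Of 21 tested, 12 had a higher and 9 a lower fitted level after silencing, and their median log2 fold change was 0.04. The summed level was 1851 to 1925 CPM in the controls and 1935 to 2025 CPM after silencing, without overlap. How often sums of other genes do not overlap was not computed. HMGB1 (167.5 ± 25.2 and 208 ± 29.4 CPM, SD, n = 3 each) and SETD2, given below, had the largest differences in mean CPM. The groups overlapped for each of these genes, so the sum does not show a rise shared across the list. By edgeR 0 of 21 passed the adjusted threshold, and DESeq2 called 0, but gave no adjusted p for POLD4. An unadjusted p under 0.05 was found for 3 (PCNA, RPA2 and FAN1, named after their values were seen), against 17.2% of all genes. The groups did not overlap for 8 of the 21, against 25.1% of all genes. PCNA had 227 ± 6.15 CPM in the controls and 206 ± 4.32 CPM after silencing (SD, n = 3 each, log2 fold change -0.14, adjusted p = 0.164 with edgeR). The largest absolute changes were those of SETD2, the histone methyltransferase whose mark recruits MutS, with a log2 fold change of 0.42 (143 ± 8.58 and 192 ± 46.7 CPM, adjusted p = 0.293 with edgeR), and of POLD4, a small subunit of polymerase delta, with -0.36 (8.30 ± 1.73 and 6.48 ± 1.34 CPM, adjusted p = 0.461 with edgeR).

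For each of the 6 genes, the tested gene with the most similar profile was found by Pearson's r of log2 CPM over the 6 libraries, as a description. The nearest genes were YTHDF2 for MLH3, ZSCAN9 for PMS1, BMP2 for PMS2, AC005229.4 for MSH3, TRIM73 for MSH6 and CHMP7 for EXO1. Each of the 6 genes had between 51 and 109 genes with r over 0.9, and a maximum over 13764 genes with 6 points each is high by construction. Among the 15 pairs of the 6 genes, r ran from -0.75 (PMS1 and MSH6) to 0.47 (MLH3 and MSH3), and these values share libraries and depth.

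Markers of the cell type were read from the same table. The epithelial keratins KRT8 and KRT18 were abundant. As group means, KRT8 was at 719 CPM in the controls and 534 CPM after silencing (adjusted p = 0.311 with edgeR). KRT18 was at 395 and 419 CPM in the same order, while CDH17 and LGALS4 were at or near 0 in every library. Other epithelial markers listed were not analysed here. Of the fibroblast markers, 3 were measured, and their summed level was 43.2 to 51.6 CPM in the controls and 44.8 to 52.1 CPM after silencing. Most of this sum was COL1A1, with means of 43.3 and 44.5 CPM in the same order. DCN was low, averaging 2.01 CPM in control and 2.31 CPM in silenced libraries. COL3A1 was low too, with 3.26 CPM in control against 2.19 CPM in silenced libraries on average. Its groups did not overlap, but edgeR did not call its drop of -0.57 in log2 units (adjusted p = 0.31). CD68, the 1 leukocyte marker measured, had 6.73 ± 1.49 CPM in the controls and 3.29 ± 1.29 CPM after silencing (SD, n = 3 each, adjusted p = 0.181 with edgeR), and the endothelial marker VWF was at 0 to 0.300 CPM.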

How the data were processed

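RNA of HCT116 cells from 2 groups of 3 was sequenced. Per the submitters' processing notes, CASAVA 1.8 and TopHat2 2.0.6 were used, and GRCh38 and mm10 are both listed as builds. The paper names Cuffdiff for differential expression, which needs alignments and was not run. The counting program, its annotation and its use of strand were not given in the sources used here. The values the authors deposited are raw counts, given for each library and Ensembl transcript.

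Counts of a gene's transcripts were added up by the GENCODE v29 annotation of GRCh38, which matched 98803 of 98886 identifiers, with 99.907% to 99.941% of the counts. The 83 unmatched identifiers stayed out. The level of 1 further gene is not reported here. The groups came from the sample labels. Genes and transcripts were tested with edgeR 4.0.16 in R 4.3.3 (TMM, filterByExpr at 10 counts and a total of 15, quasi-likelihood test, Benjamini-Hochberg adjustment over all features tested, threshold 0.05), with DESeq2 1.42.0 as an alternative. The fitted spread between replicates was larger for transcripts (biological coefficient of variation 0.698) than for genes (0.170). Total counts per library were between 11277222 and 13443866, and the floor of 3 counts is 0.223 to 0.266 CPM, for counting error only. No pair of libraries agreed within sampling noise.

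The 6 genes and the lists were chosen with earlier results of these data known, and the lists came from general knowledge. The text names every one of the 6 genes, up to 3 transcripts of each with the highest mean count and the tested ones with separate groups. It also names the cofactor and proliferation genes that passed the threshold or had the 2 largest changes. PCNA, RPA2, FAN1, HMGB1, E2F1 and UHRF1 were named beyond this rule, after their values were seen. Exon shares, transcript sums and the promoter motif were chosen after seeing the data. The scripts were tested on simulated data. The edgeR fit called 64.6% of simulated log2 fold changes of 1 and 92.9% of those of 2 for genes, and 0% of either for transcripts. Sums, figures and permutation tests used Python 3.11.15, pandas 2.3.3, numpy 2.4.6, scipy 1.17.1 and matplotlib 3.10.9.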

Additional observations from a re-analysis of the deposited data

How the results depend on the processing

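No mismatch repair gene passed the adjusted threshold under DESeq2, RLE normalization, either other filter, protein-coding transcripts only, the replicate block or the loss of any library, nor by the study's criteria. MLH3 and MSH3 kept their direction in all 12 alternatives, from 0.12 to 1.11 and from -0.16 to -0.07. With protein-coding transcripts only, PMS1 (-0.0093) and EXO1 (-0.092) changed sign. With 1 library left out, the log2 fold change ran from -6.10 to -1.09 for PMS1-221 and from -5.91 to -0.19 for MSH6-213. It ran from 1.08 to 4.32 for MLH3-212 and from 0.40 to 1.56 for PMS1-213. Leaving out each library gave log2 fold changes of -0.094 to 0.079 for PMS1, -0.029 to 0.12 for PMS2, -0.047 to 0.034 for MSH6, 0.0079 to 0.06 for EXO1, 1.502 to 4.54 for MLH3-201, -1.17 to 0.48 for MLH3-202, -0.66 to 0.51 for PMS2-206, -2.27 to 3.45 for PMS2-201, -0.81 to 0.24 for PMS2-202, -0.51 to 2.03 for MSH6-215, -0.34 to 0.0089 for EXO1-202 and -0.15 to 0.49 for EXO1-201.

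The count of all genes that differed was 130, against 519 with DESeq2, 69 without a filter and 12 to 37 with 1 library left out. For transcripts it was 6, against 675 with DESeq2, 0 without a filter and 0 to 6 with 1 library left out. Same-numbered libraries correlated by 0.112, 0.011 and 0.017 in their gene deviations, against -0.090 to 0.079 for other pairs. For transcripts the values were 0.014, 0.011 and 0.0088, against -0.0087 to -0.0019 for other pairs. The labels do not state a pairing, and the main fit used none. With the replicate block 0 genes and 0 transcripts passed, and the cofactor median was 0.057. That median ran from 0.027 to 0.094 with 1 library left out. The proliferation list gave 1 call with DESeq2, and its median was -0.026 without a filter and -0.016 to 0.022 with 1 library left out. The cause was not tested. The fitted spread was larger for transcripts (0.698) than for genes (0.170).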
